A study of Drosophila melanogaster with 72 samples.

Results

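The genes followed here, listed as constitutive, encode chaperones of the fly cytosol and endoplasmic reticulum (ER), measured in skeletal muscle of Drosophila melanogaster. They are the Hsp90 gene Hsp83, the Hsp70 cognate genes Hsc70-1, Hsc70-2, Hsc70-3 and Hsc70-4, the Hsp110-type gene Hsc70Cb, and the J-domain genes DnaJ-1 and Droj2. The rule lists them by name, and all 8 were present among the 15682 gene symbols of each count table. All 8 also passed the filter on low counts in every experiment. RNA from muscle was sequenced in 72 libraries of 3 experiments. In the age experiment (18 libraries) the parental strain B3 and the delayed-aging strains O1 and O3 were taken at 1 and 6 weeks of age, with 3 libraries per group. In the strain day course (31 libraries) the same strains were taken at zeitgeber times ZT0, ZT6, ZT12 and ZT18, hours of the lighting schedule, with 3 libraries per group except B3 at ZT6, O3 at ZT6 and B3 at ZT18 (2 each) and O1 at ZT18 (1). In the transgenic day course (23 libraries) the mhc flies carried the muscle driver Mhc-Gal4, and in the mhc>timeless flies that driver expressed the clock gene timeless (tim) in muscle, with 3 libraries per group except mhc>timeless at ZT0 (2). Both transgenic lines therefore share the driver. Between them the tim transgene cannot be told apart from any other difference between the lines. Depth differed with line and time: mhc at ZT0, ZT6 and ZT12 had 53114812 to 71871738 counts per library, and mhc at ZT18 and all mhc>timeless libraries had 123574007 to 169987515. The labels give no harvest hour for the age libraries and no age for the day-course libraries, and nothing in them ties the replicates of a group to separate flies, so p-values measure the spread between libraries, which may be technical.

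Chaperones of the Hsp70 family bind unfolded stretches of other proteins and release them in a cycle driven by ATP. J-domain proteins deliver clients and trigger ATP hydrolysis, and exchange factors such as the Hsp110 proteins open the nucleotide pocket again. Clients such as kinases and receptors are then passed by the adaptor Hop to Hsp90, while BiP, which Hsc70-3 encodes in the fly, does the work of Hsp70 inside the ER. In muscle, myosin folding depends on Hsp90 with its co-chaperone UNC-45, and filament proteins damaged by contraction are cleared by a complex of Hsc70 and the exchange factor Starvin (stv).

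Counts assigned to genes were 15454403 to 35691603 per library in the age experiment, 39516796 to 89955918 in the strain day course and 53114812 to 169987515 in the transgenic day course. Levels are gene counts scaled to a common library total within each experiment (CPM), so levels from different experiments stand side by side below without a test. The 12 muscle markers were detected in every library. The summed level of 14 testis markers reached 4.48 to 721 CPM across O3 at 1 week and 4.01 to 189.5 CPM across O1 at 1 week, against 3.12 to 6.63 CPM in B3 at 6 weeks, and libraries 2 and 3 of O1 and 1 and 2 of O3 at 1 week, the highest, are called testis-rich below. Libraries 1 and 2 of O1 at 6 weeks (133.5 and 77.0 CPM) and library 1 of B3 at 1 week (54.5 CPM) were also above B3 at 6 weeks, and they were kept where the testis-rich libraries were left out. That step leaves 1 library each of O1 and O3 at 1 week, assumed to vary like the other groups. The level of tim was 144 to 817 CPM in mhc and 891 to 1611 CPM in mhc>timeless, and the lines did not overlap at any time point. In bulk tissue fewer cells of a type and less RNA per cell cannot be told apart.

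Per kilobase of exon sequence, the levels of the 8 genes spanned a wide range. Hsc70-4, the main cytosolic Hsp70 of the fly, was highest, with a median of 798 CPM per kilobase in the strain day course (range 653 to 972, n = 31). Hsp83 followed at 415 (351 to 674), and Droj2, a J-domain protein of the class that binds clients itself, stood at 294 (248 to 415). The ranges of Droj2 and Hsp83 overlapped, and those of Hsc70-4 and Hsp83 did so slightly. Hsc70-1 had a median of 183 CPM per kilobase (154 to 208), Hsc70-3 of 126 (100.1 to 163), DnaJ-1 of 73.5 (58.1 to 103) and Hsc70Cb of 40.4 (34.6 to 46.6). Among these 4 the neighbors Hsc70-1 and Hsc70-3 overlapped, and Hsc70-3, DnaJ-1 and Hsc70Cb were separated except where Hsc70-3 and DnaJ-1 met near 103. Hsc70-2 was nearly silent, at 0.906 CPM per kilobase and 46 to 230 raw counts per library, so its values carry the largest counting error of the 8. In the transgenic day course the order by median was the same, with Hsc70-2 at 7.18 CPM per kilobase. Exon lengths came from the BDGP6 annotation, in which Hsp83, Hsc70-1, Hsc70Cb (there named Hsp110) and DnaJ-1 lie on chromosome arm 3L, Hsc70-2, Hsc70-4 and Droj2 on 3R and Hsc70-3 on X. An exon of Hsp83 overlaps the gene CG14966 on the opposite strand, which was counted at 3.46 to 10.6 CPM, far below Hsp83.

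Hsp83 changed over the day in B3 and peaked at ZT12. Its levels in the B3 libraries were 1202, 1114 and 1039.9 CPM at ZT0, 1693 and 1663 at ZT6, 1842, 1995 and 1862 at ZT12 and 1485 and 1375 at ZT18. No library of 1 time point overlapped with another time point, and the rise from ZT0 to ZT12 was 1.70-fold (0.77 on the log2 scale, edgeR adjusted p for time = 2.19e-06). In O1 the levels were 1130.3, 1195 and 1133 CPM at ZT0, 1226, 1536 and 1211 at ZT6, 1255, 1318 and 1286 at ZT12 and 1127 at ZT18. The O1 means spanned 0.22 on the log2 scale with 1 high library at ZT6, and time did not pass the test (edgeR adjusted p = 0.178). In O3 the levels were 1085, 1229 and 1096 CPM at ZT0, 1429.9 and 1376 at ZT6, 1240.0, 1242 and 1095 at ZT12 and 1142, 1099 and 1207 at ZT18. Both ZT6 libraries were above all others and the other time points overlapped, with a span of 0.31 that passed the threshold narrowly (edgeR adjusted p = 0.0446).

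The B3 profile of Hsp83 differed from that of O1 (edgeR adjusted p = 0.0253 for strain by time) and from that of O3 (0.00636), tests that share the B3 libraries. Strain by time passed the threshold for 1 of the 8 chaperone genes in O1 and 1.40% of all genes, and for 2 of the 8 in O3 (Hsp83 and DnaJ-1) and 1.55% of all genes. At ZT0 the strains lay together, at 1119 ± 81.1 CPM (SD, n = 3) in B3, 1153 ± 36.3 CPM (SD, n = 3) in O1 and 1137 ± 79.7 CPM (SD, n = 3) in O3. At ZT12 B3 stood at 1899 ± 83.0 CPM (SD, n = 3), above every O1 and O3 library at that time. The 8 fat body markers rose from ZT0 to ZT12 without overlap in each strain. They summed to 10139.6 to 11071 CPM at ZT0 and 12216 to 13769 at ZT12 in B3. The sums were 6657 to 7212 and 7606 to 8736 CPM in O1, and 6559 to 6695 and 7609 to 7783 in O3. In B3 they were 9765.5 to 10122.5 CPM at ZT6 and 7349 to 10023 at ZT18, below every ZT0 library. In B3 the 14 gut markers went from 10199 to 11878 CPM at ZT0 to 11904 to 13232 at ZT12 and the 7 hemocyte markers from 897 to 949 to 968 to 1007, also without overlap. The gut sums in B3 were 8114 to 10561 CPM at ZT6 and 7616 to 8723 at ZT18. The hemocyte sums were 971 to 998 CPM at ZT6, above every ZT0 library, and 593 to 730 at ZT18, below every ZT0 library. Time in B3 passed for 3 of 8 fat body, 7 of 13 gut, 4 of 7 hemocyte and 3 of 12 muscle markers. The part of these markers in the result was not tested. The 12 muscle markers summed to 26438 to 29455 CPM at ZT0 and 26648 to 28019.9 at ZT12 in B3, ranges that overlapped. Their sums in B3 were 23972 to 25425 CPM at ZT6, below every ZT0 library, and 25469 to 26884 at ZT18. The difference from O1 lost its call when library 3 of B3 at ZT0, library 2 of O1 at ZT0 or library 1 of O1 at ZT12 was left out (adjusted p 0.0608, 0.0627 and 0.0527) and when the fit held only B3 and O1 (0.0912). Other members near the threshold for strain by time passed when 1 library was left out. In O1 these were Hsc70-2 (0.0572, then 0.0415 without library 3 of B3 at ZT0 and 0.0376 without library 3 of O1 at ZT6) and Hsc70-3 (0.0707, then 0.0244 to 0.0421 without any 1 of the O1 libraries at ZT6). In O3 it was Hsc70-1 (0.187, then 0.0383 without library 1 of O3 at ZT6). The call of Hsp83 for time in O3 was lost without library 1 or 3 at ZT0, 1 or 3 at ZT6, 1 or 2 at ZT12, or 1 or 2 at ZT18 (adjusted p 0.0540 to 0.188), with RLE scaling (0.0635), without the count filter (0.0592) and with O3 alone in the fit (0.0812).

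**Figure D1:**
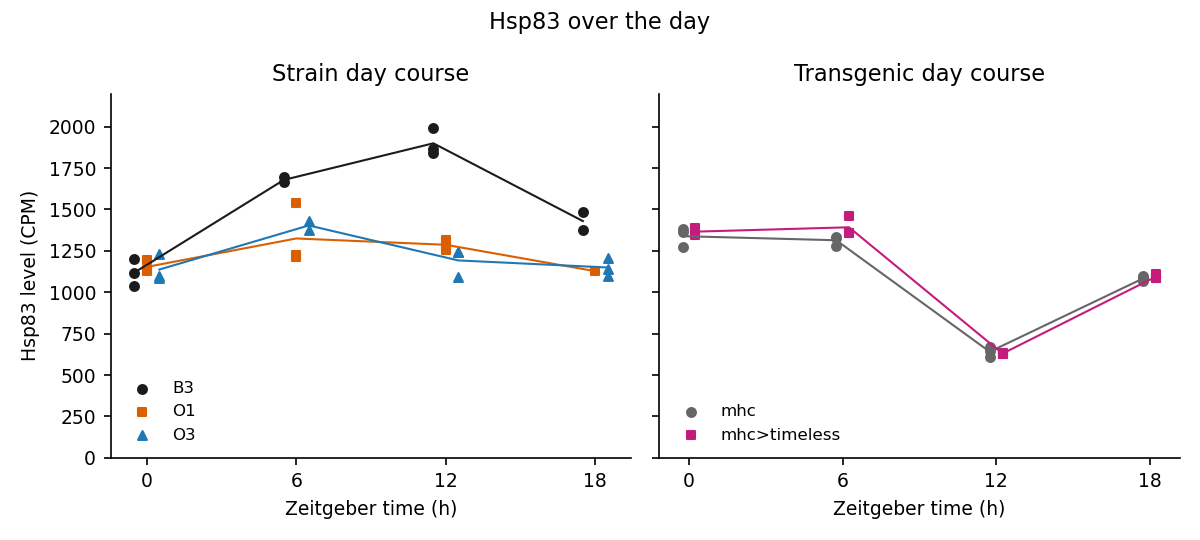
Level of Hsp83 (CPM, linear axis from 0) against zeitgeber time (h) in the strain day course (left) and the transgenic day course (right). Points are libraries, slightly offset by line, and lines join group means: B3 reaches 1899 CPM at ZT12, whereas mhc and mhc>timeless fall to 641 and 629 CPM at that time.

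Transgenic flies had a deeper daily change of Hsp83, with its lowest level at ZT12. In mhc the levels were 1381, 1274 and 1361 CPM at ZT0, 1328, 1332 and 1281 at ZT6, 610.4, 643 and 669 at ZT12 and 1097, 1086 and 1068 at ZT18. In mhc>timeless they were 1385 and 1346 CPM at ZT0, 1358, 1462 and 1357 at ZT6, 628, 629.9 and 630.1 at ZT12 and 1113, 1083 and 1087 at ZT18. ZT0 and ZT6 overlapped in both lines, ZT18 lay below them and ZT12 lay below ZT18. The span between the highest and lowest mean was 2.09-fold in mhc (edgeR adjusted p for time = 5.84e-11) and 2.21-fold in mhc>timeless (2.45e-11). Averaged over the day, mhc>timeless minus mhc was 0.025 on the log2 scale (95% interval -0.017 to 0.068, edgeR adjusted p = 0.433), and genotype by time did not pass the test (edgeR adjusted p = 0.548). ZT12 was thus the highest time in B3 and the lowest in both transgenic lines, a contrast between separately scaled experiments that differ in line and was not tested. The clock gene tim also differed there: at ZT12 it was at 261 to 284 CPM in mhc, close to the 274 to 296 CPM of ZT0, and at 632 to 932 CPM in the 3 strains, against 228 to 340 CPM at ZT0.

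DnaJ-1, which encodes the J-domain partner that delivers clients to cytosolic Hsp70, was highest at ZT12 in all 3 strains, with the smallest span in B3. In O3 its levels were 129, 140.1 and 132 CPM at ZT0, 151 and 147 at ZT6, 208, 222 and 191 at ZT12 and 159, 155 and 153 at ZT18. In O1 they were 131, 135 and 138 CPM at ZT0, 155, 126 and 156 at ZT6, 191, 182 and 181 at ZT12 and 139 at ZT18. In both strains every ZT12 library lay above all libraries of the other times, with spans of 1.54-fold in O3 (edgeR adjusted p for time = 1.97e-06) and 1.37-fold in O1 (0.000178). B3 had 173, 169 and 164 CPM at ZT0, 166 and 152 at ZT6, 183, 187 and 177 at ZT12 and 171 and 159 at ZT18. Its ZT12 libraries also lay above all others, with a smaller span between the highest and lowest means. That span of 1.15-fold did not pass the test (edgeR adjusted p = 0.245), and the O3 profile differed from that of B3 (edgeR adjusted p = 0.0250), while the comparison of O1 with B3 did not pass (0.187) except without library 2 of O1 at ZT6 (0.0308). The call for O3 was lost when library 2 of B3 at ZT0, 1 or 3 of O3 at ZT0, 1 or 3 of B3 at ZT12, or 1 or 2 of O3 at ZT12 was left out (adjusted p 0.0514 to 0.0732).

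The transgenic lines had their lowest DnaJ-1 levels at ZT12. In mhc the levels were 221, 206 and 235 CPM at ZT0, 226, 232 and 219 at ZT6, 122, 118 and 137 at ZT12 and 233, 215 and 208 at ZT18. In mhc>timeless they were 216 and 208 CPM at ZT0, 228, 231 and 232 at ZT6, 131, 133 and 133 at ZT12 and 204, 193 and 212 at ZT18. ZT12 lay below all other times without overlap in both lines, by 1.80-fold from the highest mean in mhc (edgeR adjusted p for time = 2.04e-08) and 1.74-fold in mhc>timeless (8.11e-08). Unlike Hsp83, DnaJ-1 at ZT18 was back in the range of ZT0 or slightly below it.

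Counted over the 8 genes, time passed the test for 3 in B3 (Hsp83, Hsc70-1 and Droj2; 11.2% of all genes tested), 5 in O1 (Hsc70-2, Hsc70-3, Hsc70Cb, DnaJ-1 and Droj2; 10.9%) and 6 in O3 (all but Hsc70-1 and Hsc70-2; 17.0%). It passed for 5 in mhc (Hsp83, Hsc70-3, Hsc70-4, Hsc70Cb and DnaJ-1; 22.6%) and 5 in mhc>timeless (Hsp83, Hsc70-3, Hsc70Cb, DnaJ-1 and Droj2; 19.1%). The daily spans of Droj2 were small. Droj2, the second J-domain gene, moved between 828 CPM at ZT0 and 964 at ZT12 in B3 (edgeR adjusted p for time = 0.0122) and between 623 and 730.1 at the same times in O1 (0.00803, lost at 0.181 with O1 alone in the fit). Its time calls in O3 (0.0490) and mhc>timeless (0.0447) lay just under the threshold. In O3 the call was lost without any 1 of the libraries at ZT0, 3 at ZT6, 1 or 2 at ZT12, or 2 or 3 at ZT18 (adjusted p up to 0.210), with RLE scaling (0.0542), without the filter (0.0603), with the replicate block (0.0539) and with O3 alone in the fit (0.109). In mhc>timeless it was lost without any 1 of those at ZT6, 3 at ZT12 or 1 at ZT18 (up to 0.156), with that line alone in the fit (0.0580) and with all transgenic libraries thinned to the smallest total (0.0532). In mhc, where it missed the threshold (0.0575), Droj2 passed without library 2 at ZT0, 2 at ZT12 or 3 at ZT18 (down to 0.0300).

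Hsc70-3, the BiP gene, was lowest at ZT18 in O1 and O3 and at ZT12 in the transgenic lines. In O3 its levels were 479, 465 and 469 CPM at ZT0, 444 and 432 at ZT6, 417, 387 and 416 at ZT12 and 394, 359 and 369 at ZT18, with time passing the test (edgeR adjusted p = 0.0126). O1 had 472, 507 and 453 CPM at ZT0, 453, 586 and 457 at ZT6, 425, 431 and 418 at ZT12 and 369.9 at ZT18 (0.0167, lost at 0.204 with O1 alone in the fit). Library 2 of O1 at ZT6 was the highest of all day-course libraries of the strains, and the ZT18 value rests on a single library. In mhc the levels fell from 893, 860.4 and 821 CPM at ZT0 to 648, 649 and 618 at ZT12 without overlap (edgeR adjusted p for time = 1.87e-05). In mhc>timeless they fell from 836 and 839.8 to 617, 660.1 and 691 CPM (0.000497). B3 spanned 0.18 on the log2 scale, with no call (0.291). In O3 several marker sums also fell from ZT0 to ZT18 without overlap, from 25837 to 26271 CPM to 20874 to 23431 for muscle, from 9871 to 10281 to 7336 to 8925 for gut, from 6559 to 6695 to 5410 to 5581 for fat body and from 1269 to 1313 to 754 to 983 for hemocytes. Time in O3 passed for 5 of 12 muscle and 5 of 13 gut markers. In mhc the muscle sums were 23301 to 25175 CPM at ZT0 and 22648 to 23881 at ZT12, which overlap, and time passed for 0 of 12 muscle, 3 of 13 gut and 3 of 7 hemocyte markers. In mhc>timeless it passed for 0 of 12 muscle, 6 of 13 gut, 5 of 8 fat body and 4 of 13 testis markers. The part of these markers in the daily changes was not tested.

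Hsc70Cb, the exchange factor of the set, had daily spans of 0.20 (B3), 0.21 (O1), 0.23 (O3), 0.28 (mhc) and 0.23 (mhc>timeless) on the log2 scale. Its edgeR adjusted p for time passed in O1 (0.0367), O3 (0.00309), mhc (6.53e-06) and mhc>timeless (4.22e-05), the O1 call being lost without any 1 of the 3 libraries at ZT0 or the 3 at ZT12 (adjusted p up to 0.144), without the filter (0.0573) and with O1 alone in the fit (0.430). Its lowest level in mhc, at 192, 189 and 188 CPM, fell at ZT12, the time of its highest levels in O3, 154, 157 and 156 CPM. Hsc70-4 spanned 0.15 to 0.27 in the 5 lines, and in mhc its ZT12 libraries (2469.8, 2320.5 and 2544 CPM) lay below all others (edgeR adjusted p for time = 0.00453). Its call in O3 (0.0421) was lost without library 1, 2 or 3 at ZT0, 3 at ZT6, 2 or 3 at ZT12 or 1 at ZT18 (adjusted p up to 0.163), without the filter (0.0678) and with O3 alone in the fit (0.0583). Hsc70-1, a further cytosolic Hsp70 cognate, spanned 0.034 in mhc and 0.051 in mhc>timeless, the smallest daily spans of the 8 genes in those 2 lines. In B3 Hsc70-1 was lower at ZT6 (439 and 448 CPM) and ZT18 (438 and 419.7) than in every library at ZT0 (554, 512 and 464) and ZT12 (497, 492 and 523), with an edgeR adjusted p for time of 0.0219 that rose to 0.0945 without library 3 at ZT18 and to 0.0921 with B3 alone in the fit. Hsc70-4 in B3, at 0.0732, passed without library 2 at ZT18 (0.0226).

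**Figure D2:**
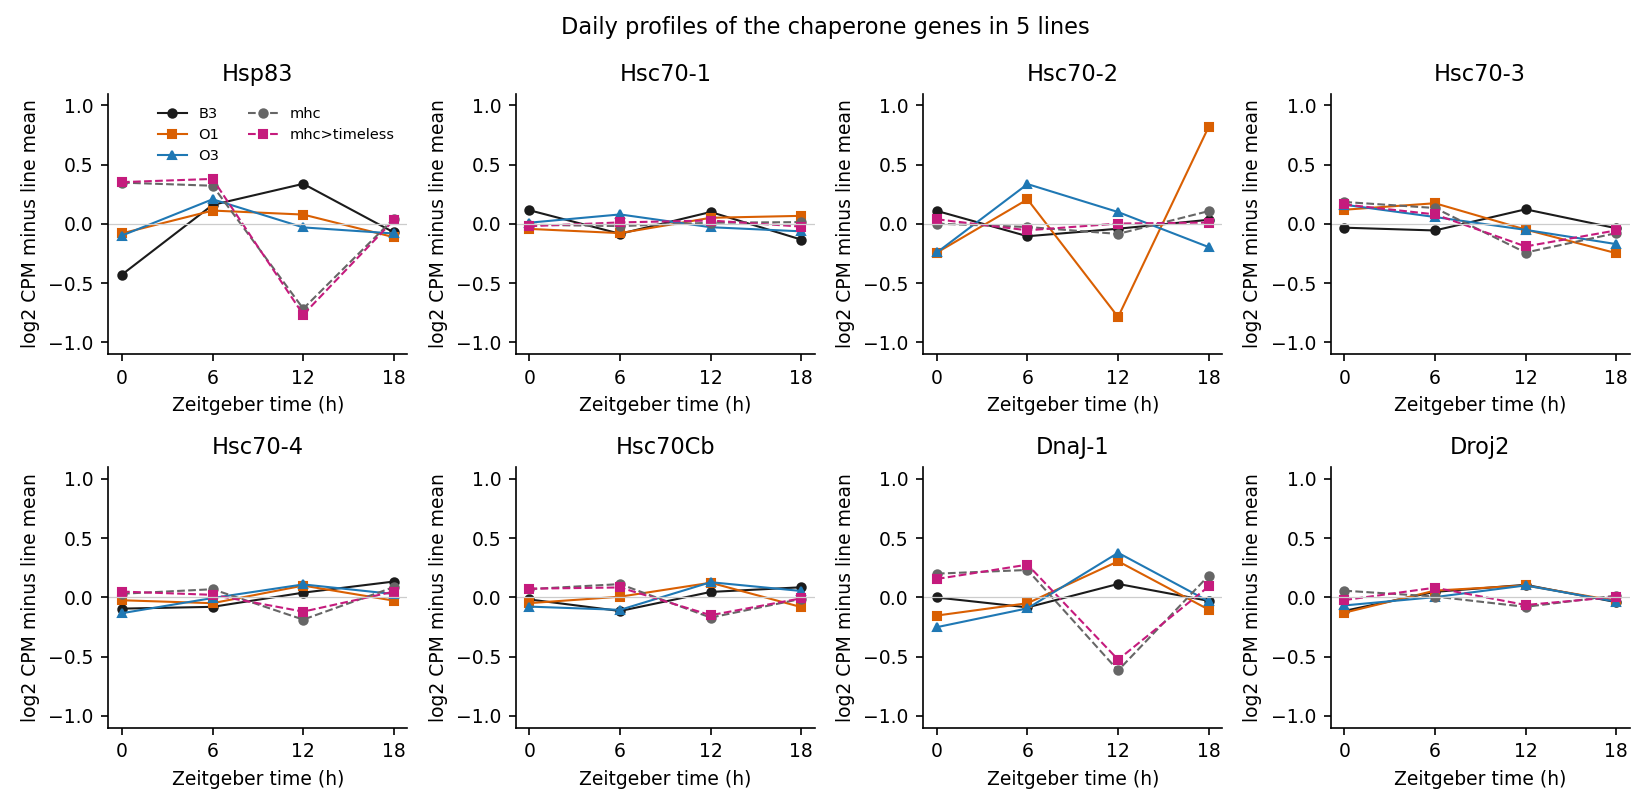
Mean log2 CPM of each gene minus the mean of its 4 time points, against zeitgeber time (h), in the strains (solid lines) and the transgenic lines (dashed). Hsp83 and DnaJ-1 dip at ZT12 in mhc and mhc>timeless, where they span 1.06 and 1.14 (Hsp83) and 0.85 and 0.80 (DnaJ-1). The wide O1 line of Hsc70-2 rests on levels of 1.04 to 3.42 CPM and 1 library at ZT18.

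Differences between mhc>timeless and mhc were small for all 8 genes. Averaged over the day, 2 of the 8 differed, both lower, against 9.75% of all genes lower, 8.68% higher and 18.4% in either direction. Hsc70Cb differed by -0.061 ± 0.015 (SE, edgeR adjusted p = 0.00738) on the log2 scale. Its mhc>timeless libraries lay below those of mhc without overlap at ZT0 (212 and 218 against 231, 221 and 219.6 CPM), ZT6 (222, 218 and 211 against 230.0, 235 and 227) and ZT18 (205, 203 and 202 against 206, 213 and 216), and overlapped at ZT12 (183, 181 and 189 against 192, 189 and 188). Droj2 differed by -0.058 ± 0.019 (SE, edgeR adjusted p = 0.0422), a call that was lost in 13 of 23 refits without 1 library and without the count filter (adjusted p 0.0641). The refits that lost it left out library 1 of mhc at ZT0, 1 or 2 at ZT6, 2 at ZT12 or 2 at ZT18, or library 2 or 3 of mhc>timeless at ZT0, 1 or 3 at ZT6, 3 at ZT12 or 1, 2 or 3 at ZT18, with adjusted p of 0.0505 to 0.104. The 95% intervals of the other 6 genes all held 0, as given above for Hsp83 and here for Hsc70-3 (-0.067 to 0.040), DnaJ-1 (-0.074 to 0.046), Hsc70-4 (-0.029 to 0.092), Hsc70-1 (-0.066 to 0.087) and the low Hsc70-2 (-0.056 to 0.19). Genotype by time passed the test for 0 of the 8 genes with edgeR and with DESeq2, and for 0.126% of all genes with edgeR. None of the 8 had an unadjusted p under 0.05, the smallest being 0.0810 for Droj2. At ZT18, the time at which both lines were sequenced deeply (148209799 to 168198507 counts in mhc and 123574007 to 138796060 in mhc>timeless), the differences were -0.057 for Hsc70Cb (edgeR adjusted p = 0.248) and -0.070 for Droj2 (0.272), and 0 of the 8 genes and 339 of all genes passed, on fewer libraries. With all transgenic libraries thinned to the total of the smallest, both stayed past the threshold (0.0218 and 0.0436). Over ZT0, ZT6 and ZT12 alone, where mhc libraries had similar depth, time in mhc passed for the same 5 of the 8 genes. Between the lines 5 of 7 hemocyte markers were higher and 1 lower, 4 of 8 fat body markers were lower, 4 of 10 male accessory gland markers were higher (median log2 difference 4.09), and 3 of 12 muscle markers were higher and 4 lower. Their part in the differences of Hsc70Cb and Droj2 was not tested.

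With age, the main cytosolic and ER Hsp70 genes were higher in all 3 strains. Hsc70-4 went from 1710.1, 2220.1 and 1989.9 CPM at 1 week to 3933, 4558 and 3889.7 at 6 weeks in B3, from 2168, 1780.3 and 1547 to 2827, 2556 and 2478 in O1, and from 1872, 1650.3 and 1679.9 to 2499, 2788 and 2373 in O3. The ages did not overlap in any strain, and the log2 differences were 1.06 ± 0.12 (SE, edgeR adjusted p = 8.23e-06) in B3, 0.52 ± 0.12 (SE, edgeR adjusted p = 0.00690) in O1 and 0.56 ± 0.12 (SE, edgeR adjusted p = 0.00258) in O3. Hsc70-3 went from 522, 584 and 581 to 847, 948 and 922 CPM in B3, from 510.2, 428 and 468 to 606, 541 and 575 in O1, and from 404, 442 and 403 to 603, 629.6 and 563 in O3. Its log2 differences were 0.69 ± 0.075 (SE, edgeR adjusted p = 4.38e-06), 0.29 ± 0.074 (SE, edgeR adjusted p = 0.0108) and 0.52 ± 0.074 (SE, edgeR adjusted p = 9.14e-05), again with no overlap between ages. The O1 value of Hsc70-3 missed the threshold without library 2 at 1 week (adjusted p 0.0531). Without both testis-rich libraries of O1 the log2 differences there were 0.25 for Hsc70-4 and 0.15 for Hsc70-3, and neither was called (adjusted p 0.230 and 0.282). These values rest on library 1 of O1 at 1 week alone, in which the gut markers summed to 14517 CPM (9005 and 9870 in libraries 2 and 3) and the fat body markers to 9917 CPM (4744 and 5664). With O1 alone in the fit both also missed the threshold (0.0567 and 0.0575).

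Hsc70Cb rose in B3, from 138, 171 and 148 to 232, 258 and 228 CPM, by 0.65 ± 0.12 (SE, edgeR adjusted p = 0.000589). In O1 and O3 the ages overlapped, at 0.16 ± 0.12 (edgeR adjusted p = 0.416) and 0.25 ± 0.12 (0.0994), and without library 1 of O3 at 1 week the O3 value passed at 0.36 (0.0393). Hsc70-1 moved the other way: in B3 it fell from 524, 472 and 481 to 336, 428 and 382 CPM without overlap, a difference of -0.37 ± 0.092 (SE, edgeR adjusted p = 0.00495). Its ages did not overlap in O1 or O3 either, where the differences of -0.23 ± 0.092 and -0.18 ± 0.092 missed the threshold (0.0866 and 0.116). Strain by age for Hsc70-1 did not pass in O1 or O3 (edgeR adjusted p 0.561 and 0.341). Droj2 had log2 differences of -0.20 ± 0.10 in B3, -0.23 ± 0.10 in O1 and -0.25 ± 0.10 in O3, none past the threshold (edgeR adjusted p 0.146, 0.142 and 0.0582). Without both testis-rich libraries of O1 its value there, with library 1 alone at 1 week, was -0.47 (adjusted p 0.0168), and without library 3 only it was -0.32 (0.0417). Of the 8 genes, 3 rose and 1 fell in B3, against 21.8% and 20.0% of all genes (41.8% in all). In O1, 2 rose and 0 fell, against 10.4% and 12.4% (22.7% in all). In O3, 2 rose and 1, Hsc70-2, fell, against 22.8% and 27.4% (50.1% in all). Markers of muscle moved in the same comparisons: the summed level of the 12 muscle markers was 36141 to 39477 CPM at 1 week and 20978 to 23459.8 at 6 weeks in B3, 31907 to 37032 and 15486 to 16367 in O1, and 37275 to 43236 and 13352 to 14642 in O3. Of these, 10 fell and 1 rose in B3, 11 fell in O1 and 12 in O3. Neuron markers fell for 7 of 10 in B3, 2 in O1 and 6 in O3. Of 6 fat body markers 3 fell in B3, 0 passed in O1 (edgeR) and 4 rose in O3, with sums of 8 genes from 10746 to 13319 CPM at 1 week to 7830 to 9489 at 6 weeks in B3 and from 5579 to 6108 to 7554 to 8710 in O3. Of 13 testis markers 12 fell in O3 and 1 in B3, and of 8 female germ line and yolk markers 5 rose in B3, 3 in O1 and 2 in O3. The 14 gut markers summed to 4994 to 8001 CPM at 1 week and 2092 to 2977 at 6 weeks in B3, where 11 fell, 9005 to 14517 and 7407 to 8182 in O1, and 4246 to 7586 and 3373 to 7411 in O3. No defining muscle or gut marker was at 0 in B3. Reads assigned to no feature also separated the ages, at 20.8 to 27.9 per 100 reads at 1 week and 13.0 to 17.6 at 6 weeks. The part of these shifts in the chaperone differences was not tested.

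**Figure D3:**
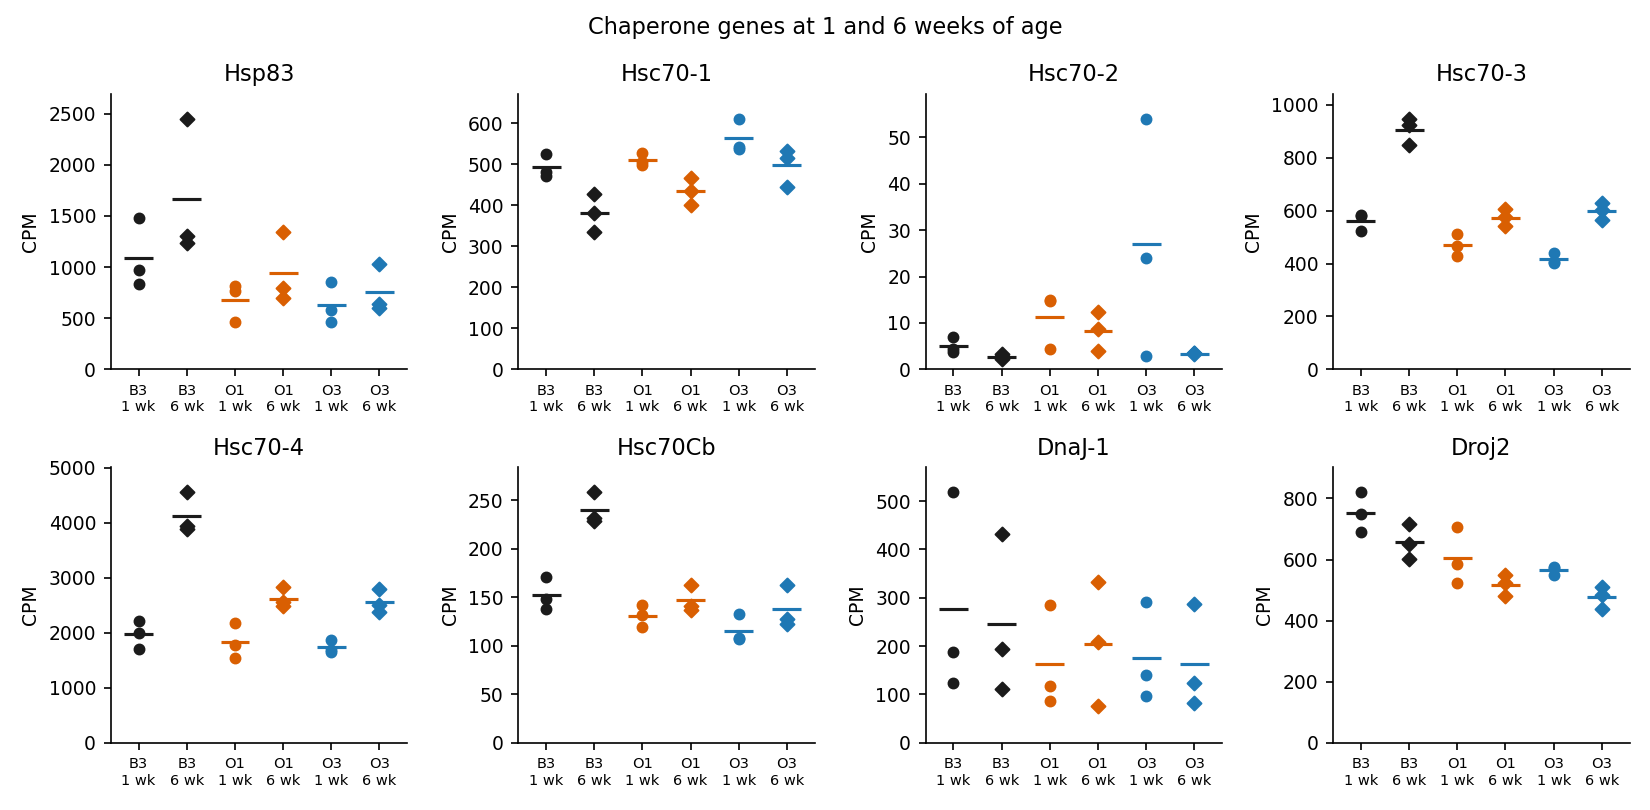
Level (CPM, linear axes from 0) of each gene in the 18 libraries of the age experiment, at 1 week (circles) and 6 weeks (diamonds), with short lines at the group means. Hsc70-4 and Hsc70-3 separate the ages in each strain, DnaJ-1 and Hsp83 scatter widely within groups, and Hsc70-2 is highest in 2 libraries of O3 at 1 week, at 24.0 and 54.1 CPM.

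Hsp83 and DnaJ-1 varied widely between libraries of a group in the age experiment. Hsp83 was at 832, 1478 and 969 CPM at 1 week and 1236, 2453 and 1302 at 6 weeks in B3, 767, 811 and 460.5 and 1342, 798 and 697 in O1, and 858, 576 and 458 and 641, 1032 and 595 in O3. The ages overlapped in every strain, with log2 differences of 0.61 ± 0.36, 0.48 ± 0.36 and 0.26 ± 0.36 that did not pass the test (edgeR adjusted p 0.205, 0.426 and 0.570). DnaJ-1 was at 123, 519 and 188 CPM and then 112, 433 and 195 in B3, 117, 284 and 87.3 and 332, 209 and 76.1 in O1, and 292, 139.6 and 96.6 and 123, 286 and 81.5 in O3. Its 95% intervals for age were -1.73 to 1.40 in B3, -1.23 to 1.90 in O1 and -1.67 to 1.46 in O3, so a 2-fold difference in either direction lies inside all 3 intervals. In each of the 6 groups the same library was highest in Hsp83 and in DnaJ-1, and that library was also highest in the inducible Hsp70 gene Hsp68 and in stv (6 of 6 groups each), genes picked for this after their values were seen. Hsp68 was at 58.9, 367 and 94.6 CPM in B3 at 6 weeks, for example, where Hsp83 was at 1236, 2453 and 1302. In the transgenic day course, by contrast, the 3 libraries of mhc at ZT12 had Hsp83 levels within 610.4 to 669 CPM.

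**Figure D4:**
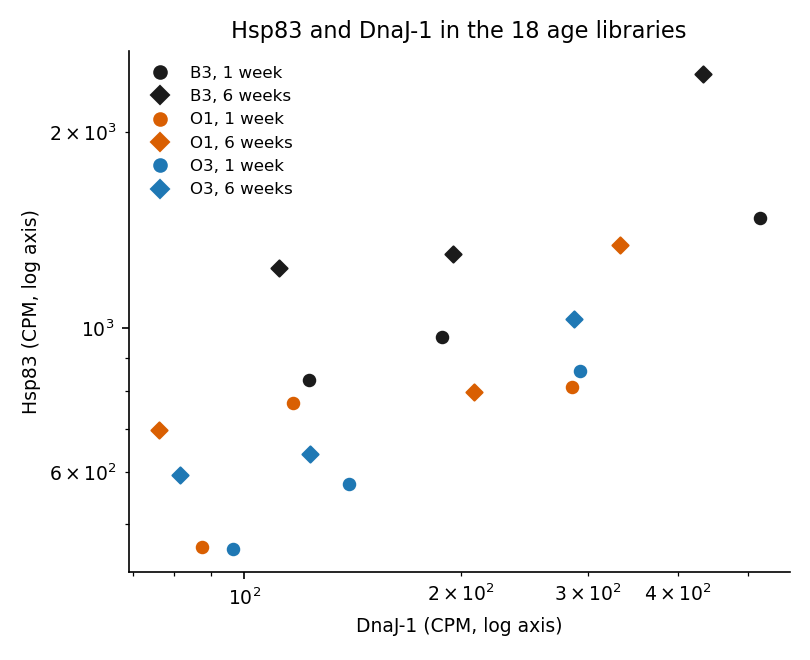
Level of Hsp83 against DnaJ-1 (CPM, both axes logarithmic) in the 18 age libraries, colored by strain, with circles for 1 week and diamonds for 6 weeks. Libraries of a group spread along both axes together, from 112 to 433 CPM of DnaJ-1 within B3 at 6 weeks.

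In the age experiment the libraries highest in Hsc70-2, a cognate gene with little signal in muscle, were those highest in testis markers. In O3 at 1 week it was at 24.0, 54.1 and 2.84 CPM in libraries 1, 2 and 3, in which the 14 testis markers summed to 267, 721 and 4.48 CPM. In O1 at 1 week it was at 4.43, 14.7 and 15.0 CPM, with testis sums of 4.01, 179 and 189.5 CPM, and in O1 at 6 weeks at 12.3, 8.67 and 4.03 CPM with 133.5, 77.0 and 19.9 CPM. Every library of O3 at 6 weeks was low in both, at 3.53, 3.23 and 3.41 CPM and sums of 3.67 to 10.7 CPM. The log2 difference with age in O3 was -2.99 ± 0.76 (SE, edgeR adjusted p = 0.00685), and it turned to 0.25 (adjusted p 0.777) without libraries 1 and 2 of O3 at 1 week, which leaves library 3 alone at that age. With O3 alone in the fit the call was also lost (0.0607). At 1 week O3 exceeded B3 by 2.43 ± 0.75 (SE, edgeR adjusted p = 0.0239), which was lost without library 2 or 3 of B3 (0.0782 and 0.0879) or library 2 of O3 (0.151) and turned to -0.79 (0.308) without both testis-rich libraries, again with library 3 alone. With only the groups compared in the fit the adjusted p was 0.123. The part of testis RNA in these values was not tested beyond this. Over the day Hsc70-2 was called for time in O1 (edgeR adjusted p = 0.000924), where it was at 1.55, 1.502 and 1.88 CPM at ZT0, 2.10, 2.88 and 1.85 at ZT6, 1.20, 1.04 and 1.13 at ZT12 and 3.42 in the single library at ZT18. ZT12 was lowest without overlap. Transgenic libraries carried Hsc70-2 at 12.5 to 18.6 CPM with testis sums of 2.17 to 23.2 CPM, higher than the 1.04 to 3.42 CPM of the strain day course, without a test across the experiments.

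Compared with B3, both delayed-aging strains had lower levels of Hsc70-3, Hsc70-4, Hsc70Cb and Droj2 at 6 weeks. The 2 comparisons share the B3 libraries. In O1, 4 of the 8 genes were lower and 0 higher, against 24.5% and 19.8% of all genes (44.4% in all). In O3, 5 were lower and 1 higher, against 20.2% and 20.0% (40.3% in all). Hsc70-4, at 4127 ± 374 CPM (SD, n = 3) in B3, 2620.1 ± 183 CPM (SD, n = 3) in O1 and 2554 ± 213 CPM (SD, n = 3) in O3, differed by -0.66 ± 0.12 (SE, edgeR adjusted p = 0.000598) in O1 and -0.69 ± 0.12 (SE, edgeR adjusted p = 0.000372) in O3. Neither O strain overlapped with B3. Hsc70-3, at 847, 948 and 922 CPM in B3, 606, 541 and 575 in O1 and 603, 629.6 and 563 in O3, differed by -0.66 ± 0.074 (SE, edgeR adjusted p = 7.78e-06) in O1 and -0.60 ± 0.074 (SE, edgeR adjusted p = 1.67e-05) in O3. Hsc70Cb differed by -0.70 ± 0.12 (SE, edgeR adjusted p = 0.000333) and -0.80 ± 0.12 (SE, edgeR adjusted p = 0.000113), and Droj2 by -0.35 ± 0.10 (SE, edgeR adjusted p = 0.0147) and -0.46 ± 0.10 (SE, edgeR adjusted p = 0.00229). Each of these genes was lower in every O library than in every B3 library. The share of all genes separated in this way was not counted. The O1 call of Droj2 was lost without library 2 of B3 (0.0750) or library 3 of O1 (0.0586). Hsp83 differed in O3 by -1.14 ± 0.37 (SE, edgeR adjusted p = 0.0226), and this rested on single libraries: without library 2 of B3 the difference was -0.75 (0.142), and without library 1 or 3 of O3 the adjusted p was 0.0802 or 0.0884. In O1 the Hsp83 difference was -0.81 ± 0.36 (SE, edgeR adjusted p = 0.0821). Without library 1 of O1 at 6 weeks it was -1.15 and passed (0.0369). Hsc70-1 ran in the opposite direction, higher in O3 at 533, 515 and 444 CPM against 336, 428 and 382 in B3 without overlap, by 0.38 ± 0.092 (SE, edgeR adjusted p = 0.00391). In O1 the difference of 0.19 ± 0.092 (SE, edgeR adjusted p = 0.112) missed the threshold, and it passed without library 2 of B3 (0.0364). In the same comparison 10 of the 12 muscle markers were lower and 1 higher in each O strain, and of the 14 gut markers 12 were higher in O1 and 10 in O3. Of 13 testis markers 7 were higher in O1 (median log2 difference 4.56) and 0 in O3, and of 8 female germ line and yolk markers 4 were higher and 1 lower in O1. In O3 4 of 7 hemocyte markers were higher and 1 lower, and 3 of 6 fat body markers were higher. The part of these markers in the chaperone differences was not tested.

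At 1 week, 2 of the 8 genes were lower and 0 higher in O1, against 13.5% and 10.3% of all genes (23.8% in all). Hsc70-3 differed by -0.26 ± 0.074 (SE, edgeR adjusted p = 0.0193) and Droj2 by -0.31 ± 0.10 (SE, edgeR adjusted p = 0.0400). Both calls were lost without library 2 of B3, 3 of B3 or 2 of O1 at 1 week (adjusted p 0.0722 to 0.155), Droj2 also without library 3 of O1 (0.163), and without both testis-rich libraries of O1, with library 1 alone left, the differences were -0.092 and -0.042. With only the groups compared in the fit the adjusted p were 0.0586 and 0.120, and without the filter Droj2 stood at 0.0834. In O3, 3 were lower and 1, Hsc70-2, higher, against 16.7% and 19.3% (36.0% in all). Hsc70-3 was at 404, 442 and 403 CPM against 522, 584 and 581 in B3, a difference of -0.43 ± 0.074 (SE, edgeR adjusted p = 0.000612). Droj2 differed by -0.41 ± 0.10 (SE, edgeR adjusted p = 0.00827) and Hsc70Cb by -0.40 ± 0.12 (SE, edgeR adjusted p = 0.0239). Hsc70Cb lost its call without library 2 of B3 (0.102) or library 2 or 3 of O3 (0.0910 and 0.0553) and with only the groups compared in the fit (0.0718), and both genes missed the threshold without both testis-rich libraries of O3, with library 3 alone left (0.0583 for Droj2 and 0.0810 for Hsc70Cb). Hsc70-4 did not differ past the threshold at this age, at -0.11 ± 0.12 in O1 (0.537) and -0.19 ± 0.12 in O3 (0.232). Markers of other cell types differed too: 8 of the 9 male accessory gland markers were higher in O3 than in B3, 5 of the 6 fat body markers were lower, 3 of 13 testis markers were higher (median 3.73), and 5 of 12 muscle markers were higher and 1 lower. In O1 4 of 14 gut markers were higher and 1 lower, 4 of 8 female germ line and yolk markers were higher, 2 of 6 fat body markers were lower, and 2 of 12 muscle markers were higher and 4 lower. Their part in these results was not tested.

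The day course gave a separate measure of the strain differences, averaged over the 4 time points. In each O strain 5 of the 8 genes were lower and 1 higher than in B3, against 27.6% lower and 28.6% higher of all genes in O1 (56.1% in all) and 29.4% and 31.3% in O3 (60.7% in all). Droj2 had the largest difference of the 8 in both strains, -0.40 ± 0.028 (SE, edgeR adjusted p = 2.66e-11) in O1 and -0.51 ± 0.025 (SE, edgeR adjusted p = 7.82e-14) in O3. Its B3 libraries ranged from 816 to 983.7 CPM and did not overlap with the O1 (608 to 753 CPM) or O3 (588 to 704 CPM) libraries at any time. Hsp83 differed by -0.30 ± 0.045 (SE, edgeR adjusted p = 4.83e-06) in O1 and -0.31 ± 0.042 (SE, edgeR adjusted p = 1.11e-06) in O3, means that hide the overlap at ZT0 described above. Hsc70Cb differed by -0.26 ± 0.027 (SE, edgeR adjusted p = 2.26e-08) and -0.21 ± 0.025 (SE, edgeR adjusted p = 1.38e-07), and Hsc70-3 by -0.12 ± 0.043 (SE, edgeR adjusted p = 0.0191) and -0.18 ± 0.040 (SE, edgeR adjusted p = 0.000334). DnaJ-1 differed in O1 by -0.17 ± 0.039 (SE, edgeR adjusted p = 0.00061). In O3 it sat just above the threshold, at -0.083 ± 0.036 with an edgeR adjusted p of 0.050, and leaving out library 3 of B3 at ZT0, ZT6, ZT12 or ZT18 or library 2 of O3 at ZT12 gave a call (adjusted p down to 0.0247). These DnaJ-1 means also hide differences between times. Every O3 library lay below B3 at ZT0 and above B3 at ZT12, and O1 overlapped with B3 at ZT12. Hsc70-4 differed in O3 by -0.16 ± 0.034 (SE, edgeR adjusted p = 0.000273), while in O1 the difference was -0.0082 (95% interval -0.084 to 0.067). Hsc70-1 was higher in both, by 0.16 ± 0.035 (SE, edgeR adjusted p = 0.000471) and 0.091 ± 0.033 (SE, edgeR adjusted p = 0.0206). The O3 call of Hsc70-1 was lost without library 3 of O3 at ZT6 (0.0856) or library 3 of B3 at ZT18 (0.0519). Markers differed in the same comparison. In O3 5 of 8 fat body markers were lower (median -1.38), 8 of 13 gut markers were lower and 2 higher, 6 of 10 neuron markers were higher, 6 of 13 testis markers were higher and 1 lower, and 4 of 12 muscle markers were higher and 7 lower. In O1 7 of 12 muscle markers were higher and 5 lower, and 5 of 13 gut markers were higher and 6 lower. Reads assigned to no feature came to 12.0 to 16.5 per 100 reads in O3 and 10.2 to 11.6 in B3, and reads listed as not unique to 30.8 to 45.4 and 24.4 to 29.4 for each 100 counted, without overlap. The part of these shifts in the chaperone differences was not tested.

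**Figure D5:**
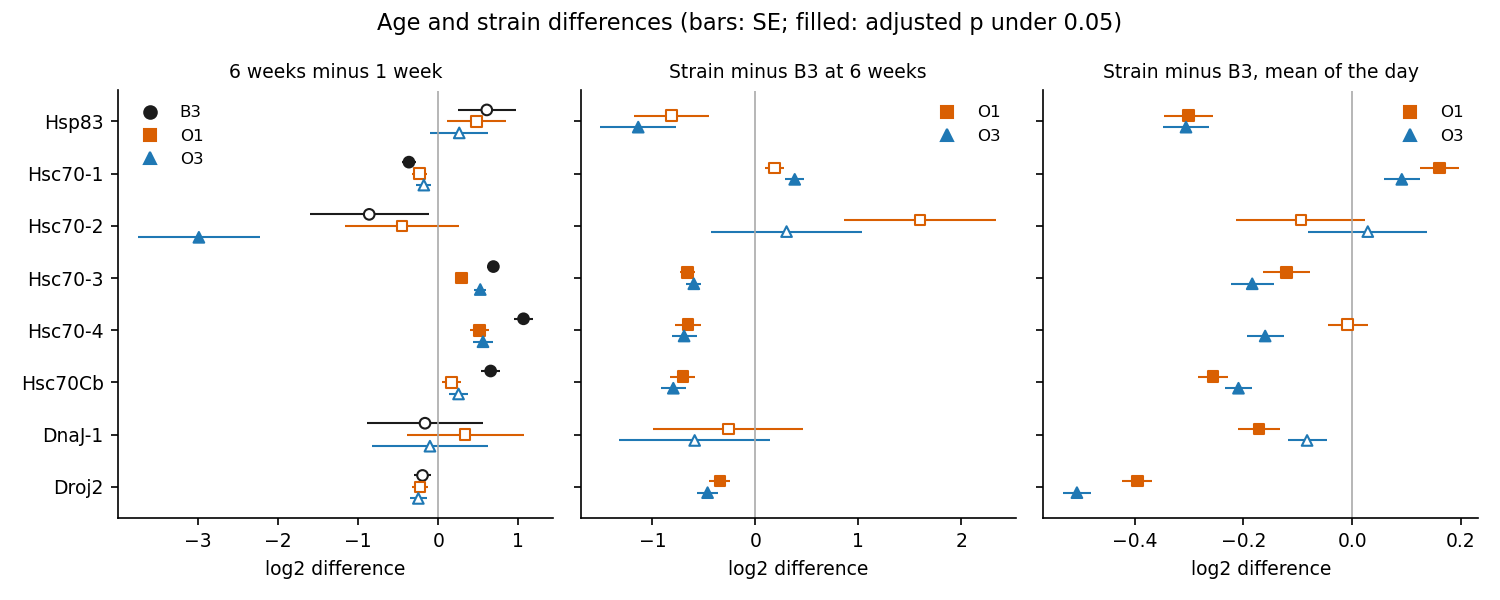
Log2 differences with SE for age within each strain (left), each O strain against B3 at 6 weeks (middle) and each O strain against B3 over the day (right). Filled symbols passed an edgeR adjusted p of 0.05, and the x axes differ in scale. Hsc70-3, Hsc70-4 and Hsc70Cb lie between -0.80 and -0.60 in both O strains at 6 weeks, while Hsc70-1 lies above 0.

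The age differences themselves were compared between strains. The rise of Hsc70-3 in O1 was smaller than in B3, with a difference of -0.40 ± 0.10 (SE, edgeR adjusted p = 0.0217) between the log2 changes, and that of Hsc70-4 likewise, with -0.55 ± 0.17 (SE, edgeR adjusted p = 0.0481). These were 2 of the 8 genes with a negative difference and 0 with a positive one, against 8.28% and 5.98% of all genes (14.3% in all). Hsc70Cb differed by -0.49 ± 0.17 (SE, edgeR adjusted p = 0.0755) and was not called. Over 18 alternative settings the differences were -0.56 to -0.33 for Hsc70-3 and -0.83 to -0.41 for Hsc70-4. For Hsc70Cb they were -0.65 to -0.42. These settings include the refit without the testis-rich libraries. The Hsc70-3 and Hsc70-4 calls lie near the threshold. Hsc70-3 missed it without library 1 of B3 at 1 week, 2 or 3 of B3 at 6 weeks or 2 of O1 at 6 weeks (adjusted p 0.0517 to 0.0614). Hsc70-4 missed it without any 1 library other than library 2 of B3 and library 3 of O1 at 1 week (up to 0.126), with RLE scaling (0.0516), without the filter (0.0873) and with only B3 and O1 in the fit (0.0769). In O3 the interaction was called for 0 of the 8 genes with edgeR, against 7.59% of all genes negative and 10.1% positive (17.6% in all), and for 1 of the 8 with DESeq2. Hsc70-4 stood at -0.51 ± 0.17 (SE, edgeR adjusted p = 0.0573) and Hsc70Cb at -0.40 ± 0.17 (SE, edgeR adjusted p = 0.125), both with an unadjusted p under 0.05 and the only 2 of the 8 with one. Hsc70-4 passed without library 2 of B3 at 1 week (0.0428), Hsc70Cb without library 2 of O3 at 6 weeks (0.0434), and Hsc70-2 without library 3 of O3 at 1 week (0.0166). The same test was passed by markers. In O1 5 of 12 muscle markers had a negative difference and 1 a positive one, and 5 of 14 gut and 2 of 6 fat body markers a positive one. In O3 11 of 12 muscle markers were negative, and 8 of 14 gut, 5 of 6 fat body and 3 of 7 hemocyte markers positive. Their part in the chaperone differences was not tested.

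Genes that work with these chaperones were counted over lists by function, of which the 2 with the smallest p per list are named, unless said otherwise. The chaperonin TRiC folds actin and tubulin, and prefoldin feeds it. All 14 of its genes rose with age in B3, with a median of 0.96 against -0.028 over all genes, while 10 of 14 rose in O1 (median 0.46) and 10 of 14 in O3 (0.50). Over all genes 21.8% rose in B3, 10.4% in O1 and 22.8% in O3. Cct5, a TRiC subunit, rose by 1.92 ± 0.057 in B3 (edgeR adjusted p = 2.74e-11), by 0.94 ± 0.056 in O1 and by 0.95 ± 0.056 in O3. CG8258 rose by 1.32 ± 0.051, 0.72 ± 0.051 and 0.74 ± 0.050. At 6 weeks all 14 were lower than in B3 in O1 (median -1.04) and in O3 (-0.97), against medians over all genes of 0.029 and 0.026, and 11 and 10 were already lower at 1 week. Over all genes 24.5% and 20.2% were lower at 6 weeks and 13.5% and 16.7% at 1 week. The age rise was smaller than in B3 for 12 of 14 in O1 and 11 of 14 in O3, against a negative difference in 8.28% and 7.59% of all genes. Over the day 11 of 14 were lower and 1 higher in each O strain, against 27.6% and 29.4% of all genes lower, led by Tcp-1eta (-0.56 ± 0.032) and Tcp-1zeta (-0.47 ± 0.029) in O1 and by the same pair in O3 (-0.58 ± 0.029 and -0.55 ± 0.027).

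Of 10 Hsp90 co-chaperones, 7 rose with age in B3 and in O3 and 4 in O1, none falling, with medians of 0.70, 0.28 and 0.22 and against 21.8%, 22.8% and 10.4% of all genes. The myosin chaperone gene unc-45 rose by 2.02 ± 0.14 in B3 (edgeR adjusted p = 4.71e-08) and 0.98 ± 0.14 in O1 (0.000108), and CG1416, the counterpart of the Hsp90 activator Aha1, by 1.00 ± 0.082 in B3 and 0.69 ± 0.082 in O3. At 6 weeks 9 of 10 were lower in O1 and 8 in O3 than in B3, against 24.5% and 20.2% of all genes. Hop, the adaptor between Hsp70 and Hsp90, was at 111, 132 and 121 CPM in B3, 58.6, 54.4 and 62.5 in O1 and 57.6, 63.5 and 60.5 in O3, with no overlap between B3 and either O strain and log2 differences of -1.05 ± 0.11 and -1.0 ± 0.11. Time passed for 1 of the 10 in B3, 2 in O1, 1 in O3, 4 in mhc and 2 in mhc>timeless. Over all genes it passed for 11.2%, 10.9%, 17.0%, 22.6% and 19.1% in the same order. Hop was called in all 5 lines (edgeR adjusted p 0.00902 in B3, 0.00152 in O1, 6.55e-05 in O3, 5.99e-07 in mhc and 2.25e-06 in mhc>timeless). Strain by time passed for 1 of the 10 in each O strain, against 1.40% of all genes in O1 and 1.55% in O3. That gene was Hop (edgeR adjusted p 0.0104 in O1 and 0.00577 in O3). In the transgenic lines it was lowest at ZT12, at 121, 116 and 119 CPM in mhc against 155, 149 and 149.6 at ZT0. In O3 it was highest at ZT12, at 78.3, 74.8 and 75.7 CPM against 59.6, 59.2 and 62.2 at ZT0, and in B3 at ZT18, at 86.3 and 89.3 CPM.

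The 12 measured ER folding genes, partners of the Hsc70-3 product, split 10 up and 1 down with age in B3 (median 0.39), 1 up in O1 (0.13) and 10 up in O3 (0.31). For these lists the shares of all genes that rose and fell were 21.8% and 20.0% in B3, 10.4% and 12.4% in O1, and 22.8% and 27.4% in O3. The ER oxidase gene Ero1L rose by 0.61 ± 0.046 in B3 (edgeR adjusted p = 1.09e-07), and Crc, for the lectin chaperone calreticulin, was the 1 called in O1 (0.19 ± 0.062, 0.0395). Xbp1, a transcription factor of the unfolded protein response, rose by 0.90 ± 0.082 in B3, 0.50 ± 0.082 in O1 and 0.75 ± 0.082 in O3. Of the 7 genes of that response, 2, 1 and 2 rose and 0, 0 and 1 fell in the 3 strains. Among 24 Hsp70 co-chaperones 10 rose and 4 fell with age in B3, 5 rose and 5 fell in O1, and 7 rose and 10 fell in O3, the J-domain gene CG7130 rising by 2.18 ± 0.23, 1.94 ± 0.23 and 1.83 ± 0.22. Of 7 mitochondrial chaperone genes, 3 rose in B3, 4 in O1 and 4 in O3, where 1 fell. Hsc70-5, the mitochondrial Hsp70, rose by 0.80 ± 0.093 in O1 and 0.73 ± 0.093 in O3, and Trap1, the mitochondrial Hsp90, by 0.64 ± 0.076 and 0.72 ± 0.076.

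Of 13 heat-inducible genes, 3 rose and 1 fell with age in B3, 1 fell in O1, and 1 rose and 1 fell in O3. Against 21.8% and 20.0% of all genes in B3, 10.4% and 12.4% in O1 and 22.8% and 27.4% in O3, these counts were near or below the background. The small heat shock gene Hsp23 rose from 9.18, 14.1 and 16.0 to 71.8, 89.3 and 64.6 CPM in B3 and at 6 weeks was lower in O1 and O3 (11.1, 9.48 and 13.1 and 8.31, 10.7 and 10.5 CPM, edgeR adjusted p 2.26e-05 and 1.2e-05). In mhc>timeless 3 of 13 were higher than in mhc, against 8.68% of all genes, led by Hsp70Bb. That gene was at 6.91, 6.10 and 6.14 CPM in mhc and 28.7 and 24.0 in mhc>timeless at ZT0, and at 4.35, 4.38 and 4.54 and 20.8, 26.6 and 21.2 at ZT12, a log2 difference over the day of 2.16 ± 0.059 (edgeR adjusted p = 3.1e-14). Hsp70 genes have near-identical copies, so reads may be split among them. Whether the reads counted as Hsp70Bb came from the gene itself was not tested. In the same comparison 4 of 10 Hsp90 co-chaperones were lower and 1 higher (9.75% and 8.68% of all genes), led by Dpit47 (-0.29 ± 0.029) and Sgt (-0.19 ± 0.021), of 24 Hsp70 co-chaperones 6 were lower and 2 higher, 3 of 7 mitochondrial chaperone genes were higher, 0 of 12 ER folding genes and 0 of 7 genes of the unfolded protein response passed with edgeR, and 1 of 14 TRiC and prefoldin genes, Cct5, was higher (0.15 ± 0.040). For the daily course, time passed for 8 of 14 TRiC and prefoldin genes in B3, 0 in O1, 3 in O3, 9 in mhc and 1 in mhc>timeless, and for 3, 6, 4, 8 and 4 of the 12 ER folding genes in the same order. Over all genes it passed for 11.2%, 10.9%, 17.0%, 22.6% and 19.1%. Of the heat-inducible genes, time passed for 3 of 12 in B3, 2 of 12 in O1 and 3 of 12 in O3. In mhc it passed for 6 of 13 and in mhc>timeless for 5 of 13. Hsp68, an inducible cytosolic Hsp70 of that list, passed in B3 (0.0127), O1 (0.00362), mhc (0.000207) and mhc>timeless (3.69e-05). Its profile differed from B3 in both O strains (0.0169 and 0.0257), where strain by time passed for 1 of the 12 each.

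Among 8303 genes ranked by the Pearson correlation of their 12 group means with Hsp83 in the strain day course, those most like it were CG9839 (r = 0.90), CG13671 (0.89), the signal peptide protease gene Spp (0.88), CG1109 (0.88) and scf (0.88). Over the 8 group means of the transgenic day course, which the ranking did not use, their correlations with Hsp83 were -0.15, 0.72, 0.51, 0.37 and 0.29, the highest of which was that of CG13671. Hsc70-3 was most like CG4164 (0.95), CG2918 (0.92), P58IPK (0.91), Gp93 (0.89) and p115 (0.88). In the transgenic means these stood at 0.93, 1.00, 0.93, 0.98 and 0.92. Gp93 encodes the ER form of Hsp90 and P58IPK an ER J-domain protein, and both, with CG4164, were also on the ER folding list. These values describe group means that share strains, times and libraries, and carry no test. Gp93 in mhc was at 351, 352 and 331 CPM at ZT0, 352, 314 and 341 at ZT6, 242, 255 and 235 at ZT12 and 260.3, 271 and 275 at ZT18. ZT12 was lowest without overlap, as for Hsc70-3.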

How the data were processed

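Trizol extraction and stranded mRNA libraries are given per the labels' protocols for the 72 muscle samples. The authors deposited 1 table of raw read counts per gene symbol for each library. The submitters' processing notes name HTSeq, STAR, BWA and build dm3 without roles or versions. Which annotation and strand setting were used for counting is not given in the sources. Summary entries that are not genes stayed outside the totals: reads assigned to no feature came to 13.0 to 27.9 per 100 reads in the age experiment, 7.11 to 16.5 in the strain day course and 7.12 to 10.2 in the transgenic day course. Reads listed as not unique numbered 0.419 to 0.686 for each 100 counted in age libraries, 19.8 to 45.4 in the strain day course and 7.53 to 11.8 in the transgenic one. This difference between experiments can shift levels of related genes set side by side across them.

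Each experiment was fitted once with a mean per group in edgeR 4.0.16 (R 4.3.3, limma 3.58.1) by the quasi-likelihood F-test, after filterByExpr and TMM scaling. Benjamini-Hochberg adjustment ran over all 12445, 12295 or 12727 genes tested, with a threshold of 0.05. The single library of O1 at ZT18 was assumed to vary like the other groups. CPM used the TMM-scaled totals. Daily tests were joint tests over the 4 time points. The residual degrees of freedom were 12, 19 and 15. Alternatives were RLE scaling, no filter, DESeq2 1.42.0, the replicate number as a block, only the groups compared, each library left out in turn and, added after seeing the data, the testis-rich libraries left out, the transgene at ZT18 alone, time in mhc over ZT0, ZT6 and ZT12 alone, and transgenic counts thinned at random to the smallest total. Of each gene list the 2 called genes with the smallest p per comparison could be named, and the 5 genes with the highest correlation were named for likeness. Members and lists were chosen with earlier results of these data known, so list counts carry no test of their own.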

Additional observations from a re-analysis of the deposited data

Results flagged for a closer look

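Of the 8 chaperone genes, 4 had a daily profile or an age difference that differed between strains by a test of the difference itself. Hsp83 was picked out because its daily profile in B3 differed from that in O1 (edgeR adjusted p = 0.0253) and in O3 (0.00636). The O1 call was lost in 3 of 19 refits without 1 library and the O3 call in 0 of 21. DnaJ-1 was picked out because its daily profile in O3 differed from that in B3 (edgeR adjusted p = 0.0250), a call lost in 7 of 21 such refits. Over all genes, strain by time passed for 1.40% in O1 and 1.55% in O3. The age differences of Hsc70-3 (edgeR adjusted p = 0.0217) and Hsc70-4 (0.0481) in O1 were smaller than in B3, calls lost in 4 and 10 of 12 such refits, and strain by age in O1 passed for 14.3% of all genes. All 5 comparisons use the B3 libraries. No group had 4 or more libraries, so no single library was tested for standing apart from its group.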

How the results depend on the processing

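Counts below are of the 8 chaperone genes called, beside the main count of the same comparison. With RLE scaling 5 were called for age in O3 (3 with TMM), and 1 for strain by age in O1 (2) and in O3 (0). Without the filter 1 was called at 1 week in O1 (2), 1 for strain by age in O1 (2), 3 for time in O3 (6) and 1 for the tim transgene (2). DESeq2 called 5 for age in O3, 1 for strain by age in O3, 5 for time in B3 (3), and 4 each for strain by time in O1 (1) and O3 (2). With only the groups compared in the fit, 0 were called for age in O1 (2), 0 at 1 week in O1, 1 for strain by age in O3, 2 for time in O1 (5), 3 for time in O3 and 0 for strain by time in O1. Without the testis-rich libraries, which leaves 1 library each of O1 and O3 at 1 week with the spread taken from the other groups, 1 was called for age in O1, 0 at 1 week in O1 and 1 at 1 week in O3 (4), and Hsc70-2 turned from -2.99 to 0.25 for age in O3 and from 2.43 to -0.79 at 1 week in O3. At ZT18 alone 0 were called for the transgene (2), and 339 of all genes (2346). Over ZT0, ZT6 and ZT12 alone 1555 of all genes (2871) were called for time in mhc. The cause of these changes in the counts was not tested.

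With each library left out in turn, the counts were 4 to 4 for age in B3, 1 to 3 in O1 and 3 to 4 in O3, 0 to 2 at 1 week in O1 and 2 to 4 in O3, 3 to 5 at 6 weeks in O1 and 5 to 6 in O3, and 0 to 2 for strain by age in O1 and 0 to 1 in O3. For time they were 2 to 4 in B3, 4 to 5 in O1, 3 to 5 in O3, 5 to 6 in mhc and 4 to 5 in mhc>timeless. Over the day they were 6 to 6 in O1 and 5 to 7 in O3, 0 to 3 and 1 to 3 for strain by time, 1 to 2 for the transgene and 0 to 0 for genotype by time. Leaving out the single O1 library at ZT18 gives no value, since its group would be empty.

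Same-numbered libraries had a median correlation of deviations of 0.084 in the age experiment (range -0.351 to 0.516), 0.019 in the strain day course (-0.464 to 0.563) and -0.065 in the transgenic one (-0.666 to 0.690), against medians of -0.038, -0.0036 and 0.0075 for different numbers. The numbers were not taken as pairs. Correlations of both kinds spread widely in these small groups, so they cannot settle whether the numbers mark pairs. With the replicate block the counts were 4, 2 and 3 for age in B3, O1 and O3, 2 and 4 at 1 week, 5 and 6 at 6 weeks, 3, 5 and 5 for time in B3, O1 and O3, 6 and 7 over the day, 6 for time in mhc, 5 in mhc>timeless, 2 for the transgene and 0 for genotype by time, and 2, 0, 1 and 2 for the interactions with age and time in O1 and O3. None of these counts of the 8 genes moved by over 1.5 times under the block.

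Over all genes, counts that moved by over 1.5 times were, with only the groups compared, 1409 (2830) for age in O1, 1887 (2956) at 1 week in O1, 573 (1341) for time in O1 and 46 (172) for strain by time in O1. Without the testis-rich libraries they were 3034 (6238) for age in O3, 2448 (4475) at 1 week in O3 and 4078 (1775) for strain by age in O1. DESeq2 gave 545 (172) and 732 (190) for strain by time in O1 and O3 and 609 (16) for genotype by time, and the block 105 for strain by time in O1. With each library left out in turn they ranged over 4143 to 6555 for age in O3, 2706 to 5726 at 1 week in O3, 1372 to 3463 (2093) for time in O3, 86 to 210 and 98 to 1109 for strain by time in O1 and O3, and 2 to 49 for genotype by time. Of 160 results on single chaperone genes 156 kept their side of the threshold with the block, 154 with RLE, 152 without the filter, 143 with DESeq2 and 135 with only the groups compared. Precision is limited by the 1 to 3 libraries per group and, for Hsc70-2, by 46 to 230 raw counts per library of the strain day course.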
